A study of Rattus norvegicus with 4 samples.

Results

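The leptin receptor locus and the receptors for insulin and adiponectin were examined in the liver of male WNIN/Ob rats aged 4 months, a strain with a lean and an obese phenotype, both untreated and given stock diet and water without restriction. The genes were Lepr, Leprot, Leprotl1, Insr, Irs1, Irs2, Adipor1 and Adipor2, and every probe set whose platform symbol field held any of these names was kept. The platform annotation named 7 of the 8 genes, through 7 probe sets among 15633 that carried a symbol; no probe set was named for Irs2, which was not analysed here. RNA of 4 lean and of 4 obese rats formed 1 lean and 1 obese pool, and each pool was hybridised to 2 Affymetrix Rat Gene ST arrays, called original and technical replicate. The labels define the groups by phenotype. Each phenotype is therefore 1 sample: no test between animals was possible, and every range below covers array-to-array error only, limited by the number of arrays.

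Leptin, insulin and adiponectin are hormones that report on energy stores and nutrient supply. Lepr encodes the leptin receptor, a cytokine receptor that signals through the kinase Jak2 and STAT transcription factors. Leprot and its relative Leprotl1 encode small membrane proteins that limit the amount of receptor at the cell surface. Insr encodes the insulin receptor, a tyrosine kinase, and Irs1 and Irs2 the docking proteins that pass its signal to phosphatidylinositol 3-kinase. Adipor1 and Adipor2 encode the adiponectin receptors, the former linked mainly to the kinase AMPK and the latter to the nuclear receptor PPARα.

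Lepr and Leprot lie on the same strand and overlap in the rat genome. In RefSeq on the GRCr8 build, the Lepr transcript start used here lies 4565 bases downstream of the Leprot start and inside the Leprot gene. The windows from 250 bases before to 30 bases from each start are printed because 1 probe set reports both genes. They span chr5:121404920-121405199 (plus strand) for Leprot and chr5:121409485-121409764 (plus strand) for Lepr. Capitals mark the GC box GGGCGG, searched on both strands without regard to overlap with other motifs.
Leprot: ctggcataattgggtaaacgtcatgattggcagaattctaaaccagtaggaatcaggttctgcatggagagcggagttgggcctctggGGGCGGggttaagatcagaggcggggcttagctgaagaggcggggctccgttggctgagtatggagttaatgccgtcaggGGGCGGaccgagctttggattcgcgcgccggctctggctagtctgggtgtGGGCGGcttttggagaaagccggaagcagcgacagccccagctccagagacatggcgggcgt
Lepr: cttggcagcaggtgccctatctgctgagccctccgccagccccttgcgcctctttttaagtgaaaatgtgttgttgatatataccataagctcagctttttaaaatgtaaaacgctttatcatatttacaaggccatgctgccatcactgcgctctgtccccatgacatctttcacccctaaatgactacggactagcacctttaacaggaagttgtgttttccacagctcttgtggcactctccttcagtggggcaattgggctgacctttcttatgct
The Leprot window held 3 GC boxes, all on the printed strand, and had a GC content of 59.6%. The Lepr window held 0 and had a GC content of 46.8%. Among 33469 RefSeq windows of the same length, 32.2% held at least 1 GC box and 7.8% at least 3. The median GC content was 51.4%. These letters describe the windows, and no binding was measured. Whether transcription of Lepr begins at the start used here was not tested. The Lepr window, inside the Leprot gene, is therefore not shown to be a promoter.

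The tissue and array checks frame the values that follow. All 10 hepatocyte markers were above the median level in both pools, and albumin (Alb) stood at 13.61 and 13.72 on the lean arrays and at 13.72 and 13.77 on the obese arrays (log2 intensity throughout). The lean pool also carried skeletal muscle transcripts: all 14 measured muscle markers were lower in the obese pool, their summed linear intensity was 33427 to 34718 on the lean arrays against 496 to 515 on the obese arrays, and the difference of Acta1, muscle actin, was -6.22 and that of Ckm, creatine kinase, -5.89. None of the muscle markers was at 0, and 2 of 14 reached the median level in the obese pool. Over all named probe sets, the SD of the difference between arrays of the same pool was 0.20 (lean) and 0.27 (obese), against 0.48 to 0.51 between arrays of different pools.

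None of the 7 receptor and substrate probe sets differed between the pools by 1.5-fold. A probe set was counted as higher or lower when the pool means, taken on the log2 scale, were 1.5-fold apart, a gap of 0.25 or more separated the closest lean and obese arrays, and the brighter pool reached the median level of named probe sets (5.52). By this rule 2.11% of all 15633 named probe sets were higher in the obese pool and 2.3% lower, or 330 and 360, which became 237 and 417 after cyclic loess, a renormalisation of the arrays to each other. All 7 probe sets reached the median level. A count of 0 of 7 lies close to these shares and is no result about these genes. Both obese arrays lay below both lean arrays for 3 of the 7 (the probe set of Lepr and Leprot, Adipor1 and Irs1), as for 18.5% of all named probe sets, and above them for 1 of the 7 (Adipor2), as for 27.6% of all. The arrays of the pools overlapped for the remaining 3, which were Leprotl1 and both Insr probe sets.

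**Figure D1:**
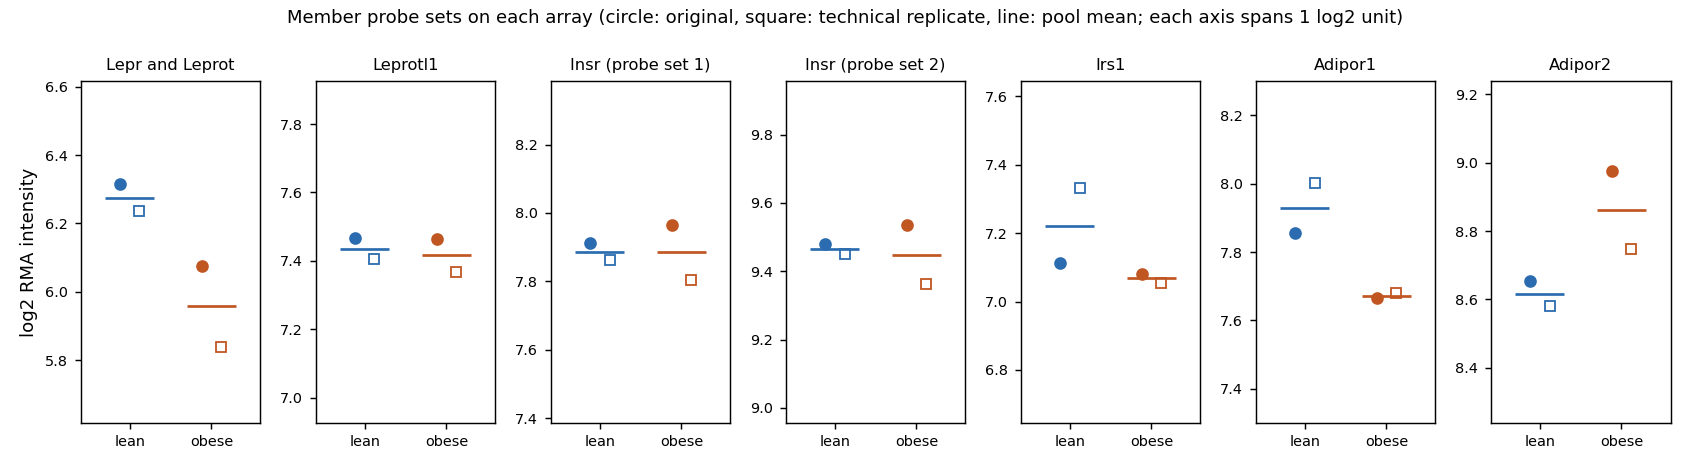
Log2 RMA intensity (vertical axes, each spanning 1 log2 unit) of the 7 probe sets on the lean and obese arrays; filled circles are original arrays, open squares technical replicates and lines pool means. The obese arrays lie below the lean arrays for Lepr and Leprot, Irs1 and Adipor1 and above them for Adipor2, while the arrays of the pools overlap for Leprotl1 and Insr.

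Over all 4 arrays the leptin receptor locus showed the largest difference of the group, a rank that passed to Adipor1 (-0.33 against -0.28) without the lean original array and to Adipor2 (0.36 against -0.20) without the obese technical replicate. The probe set shared by Lepr and Leprot read 6.31 and 6.24 on the lean arrays and 6.08 and 5.84 on the obese arrays. Both obese arrays were below both lean arrays, with the obese technical replicate lowest. The pool means were 6.28 ± 0.05 and 5.96 ± 0.17 (SD, n = 2 arrays), a difference of -0.32 and a level 1.25-fold lower (1.12 to 1.39 when each lean array was set against each obese one, 4 pairs in all). A difference of at least this size in either direction was found for 18.4% of named probe sets. The size depended on the obese array: it was -0.20 without the obese technical replicate and -0.44 without the obese original. Because the annotation assigns the probe set to transcripts of both genes, how much of its signal comes from Lepr, from Leprot, or from any of the receptor's isoforms cannot be told apart. In bulk RNA, fewer cells of a type and less RNA per cell cannot be told apart either.

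The endothelial, macrophage and stellate cell markers, of cell types that a liver piece also holds, had medians below 0. The difference of the shared probe set had the same sign. Medians of the muscle, lymphocyte and adipocyte markers were below 0 too (-6.06, -0.24 and -0.26). Those of the hepatocyte, bile duct and pancreas markers were above 0 (0.10, 0.03 and 0.09). No lymphocyte or bile duct marker reached the median level. All 5 measured endothelial markers had differences below 0, with a median of -0.09, against 0.03 over all genes. Their summed intensities were 947 to 953 on the lean and 758 to 860 on the obese arrays. All 8 macrophage markers also lay below 0, with a median of -0.25 and sums of 2528 to 2573 against 1991 to 2304. None of these 13 passed the 1.5-fold rule, by which 2.19% of all genes were higher and 2.36% lower. Of 8 stellate cell markers 3 passed as lower, against 2.36% of all genes. The median of the 8 was -0.28, with sums of 2101 to 2221 against 1115 to 1203. Most of that gap came from desmin (Des), which muscle also expresses, with a difference of -4.05. Without it the sums were 1546 to 1557 against 1074 to 1170. Dcn and Col1a1 also passed as lower, with differences of -1.90 and -0.97. Lrat and Col3a1 differed by -0.34 and -0.22, and Acta2, Reln and Pdgfrb by 0.00, -0.03 and 0.11. No marker of these lists was at 0, and their part in the result was not tested, nor was that of muscle.

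Leprotl1, the relative of Leprot encoded elsewhere in the genome, read nearly alike in the pools. It read 7.47 and 7.40 on the lean arrays and 7.47 and 7.37 on the obese arrays. The arrays of the pools overlapped, and the difference of -0.02 had a range over pairs from -0.10 to 0.06.

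The 3 probe sets whose values over the 4 arrays most resembled those of the Lepr and Leprot probe set, after each probe set's own mean was subtracted, were those of Inpp5a, Olr673 and Ipo13. Their root mean square distances from it were 0.011, 0.013 and 0.013 log2 units, and their differences between pools were -0.30, -0.32 and -0.33. Inpp5a encodes an inositol phosphate phosphatase, Ipo13 a nuclear transport receptor and Olr673 an olfactory receptor. Olr673 was dim, at 2.12 or below on every array, where values are not shown to be above background. With 4 arrays of 2 pools, the resemblance describes these arrays only.

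Both probe sets of the insulin receptor read alike in the pools. The Insr probe set matched to the RefSeq transcript was at 7.91 and 7.86 on the lean arrays and at 7.97 and 7.80 on the obese arrays. The other, matched to a further Insr cDNA, was at 9.48 and 9.45 against 9.53 and 9.36. In each the obese arrays enclosed the lean arrays. The differences were 0.00 (range over pairs -0.11 to 0.10) and -0.02 (-0.12 to 0.08), and the largest difference of any pair was 1.08-fold.

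Irs1, the docking protein that the receptor phosphorylates, was slightly lower in the obese pool. It read 7.11 and 7.33 on the lean arrays and 7.08 and 7.05 on the obese arrays. The lean original array was 0.03 above the nearest obese array, whereas the lean arrays differed from each other by 0.22. The difference of -0.15, or 1.11-fold (1.02 to 1.21), was thus smaller than the gap between the lean arrays, and it was -0.04 without the lean technical replicate. Muscle, whose markers were high in the lean pool, also expresses Irs1, Insr and Adipor1, and its part in their values was not tested.

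The adiponectin receptors differed in opposite directions. Adipor1 read 7.86 and 8.0 on the lean arrays and 7.66 and 7.68 on the obese arrays, both obese arrays being below both lean arrays. Its difference of -0.26 corresponded to a level 1.20-fold lower in the obese pool (1.13 to 1.26), a size reached by 25.7% of named probe sets. Adipor2 read 8.65 and 8.58 on the lean arrays and 8.98 and 8.75 on the obese arrays, both obese arrays being above both lean arrays. Its difference of 0.24 corresponded to a level 1.18-fold higher (1.07 to 1.32), a size reached by 27.6% of named probe sets. Adipor2 also stood 0.23 apart between the obese arrays, and its difference was 0.36 without the obese technical replicate and 0.13 without the obese original.

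**Figure D2:**
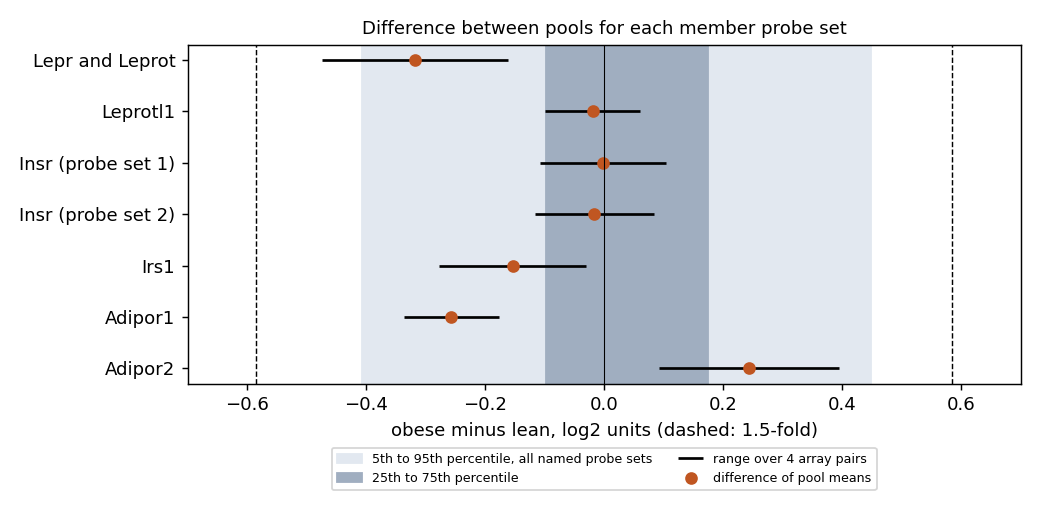
Difference between the pools (obese minus lean, log2 units, horizontal axis) for each probe set; points are differences of pool means, bars the range over the 4 pairs of arrays, shading the spread of all named probe sets, and dashed lines 1.5-fold. All points lie inside the outer shaded band, from -0.32 for Lepr and Leprot to 0.24 for Adipor2.

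The ligands of these receptors were dim in both pools. Lep, which encodes leptin, read 4.74 and 4.51 on the lean and 4.10 and 4.29 on the obese arrays, and Adipoq, which encodes adiponectin, 4.47 and 4.67 against 4.24 and 4.19. Both hormones are made mainly by fat cells. Both probe sets were below the median level in each pool, so no level above background is shown and no fold is given. Of 9 adipocyte markers 0 passed the rule, by which 2.19% of all genes were higher and 2.36% lower. Of the 9, 3 reached the median level in either pool. The differences of 6 lay below 0, with a median of -0.26 over the 9, against 0.03 over all genes. Their summed intensities were 650 to 693 on the lean and 771 to 798 on the obese arrays, and 315 to 349 against 288 to 298 without Cidec, a lipid droplet protein that a fatty liver also expresses.

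In the leptin list, which holds Lep and the signalling genes downstream of the receptor, 1 feedback inhibitor passed the 1.5-fold rule. Of 12 measured genes, 0 were higher and 1 was lower by the 1.5-fold rule, and the median difference was -0.03, against 0.03 over all 14506 genes, of which 2.19% were higher and 2.36% lower. The arrays of the pools overlapped for 4 of the 12. The obese arrays lay above the lean arrays for 4, against 27.6% of all named probe sets. They lay below them for 4, against 18.5%. Cish, a cytokine-inducible inhibitor of STAT5 signalling, read 7.58 and 7.75 on the lean and 5.97 and 5.64 on the obese arrays, a level 3.63-fold lower in the obese pool (3.05 to 4.31). Cish is also induced by growth hormone, so it does not report on leptin alone. Socs3, the inhibitor induced through STAT3 and named with its value known, read 5.95 and 5.91 against 6.45 and 6.42, 1.41-fold higher (1.38 to 1.45) and so short of the 1.5-fold rule.

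Of 30 measured genes of insulin signalling, 3 were higher in the obese pool and 0 lower, against 2.19% and 2.36% of all genes, with a median difference of 0.04. Pik3r1, the regulatory subunit that binds Irs proteins to phosphatidylinositol 3-kinase, read 8.09 and 8.17 on the lean and 8.98 and 9.0 on the obese arrays, 1.82-fold higher (1.75 to 1.89). The atypical protein kinases C followed the same direction. Prkcz was 1.95-fold higher (1.82 to 2.09). Its lean mean of 5.51 was just under the median level, which leaves this fold without a firm size. Prkci was 1.57-fold higher (1.45 to 1.70), and did not pass the rule without the obese original array or with cyclic loess. Grb10, an adaptor that inhibits the insulin receptor and was named with its value known, had a difference of -1.20 but was not counted, as its lean level of 5.52 fell just short of the median level. Inppl1, a phosphatase that opposes the kinase and was likewise named afterwards, had a difference of -0.55. It passed as 1 lower gene when either original array was left out, and both it and Grb10 passed as lower with cyclic loess. Pik3r3, another regulatory subunit named afterwards, had a difference of 0.81. Its pool means of 4.16 (lean) and 4.98 (obese) were below the median level, and it passed as higher only without a level filter.

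Of 17 measured genes of adiponectin and AMPK signalling, 0 were higher and 1 was lower, against 2.19% and 2.36% of all genes. The median difference was -0.13, but its sign rested on dim genes: all 6 genes under the median level in both pools lay below 0, whereas the 11 others, 6 of them above 0, had a median of 0.24. The lower gene was Prkab2, a regulatory subunit of AMPK abundant in skeletal muscle, at 5.45 and 5.64 on the lean and 4.49 and 4.70 on the obese arrays. The obese level lay below the median level, so the difference of -0.95 has no firm size, and without the lean technical replicate the count of lower genes was 0. Prkaa1, a catalytic subunit of AMPK also named with its value known, differed by 0.53 and passed as 1 higher gene when either technical replicate was left out.

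Among transcripts that insulin controls in liver, Igfbp1, G6pc1 and Trib1 were lower in the obese pool. Of 5 measured genes 0 were higher and 3 lower by the 1.5-fold rule, against 2.19% and 2.36% of all genes, with a median difference of -0.62. Igfbp1, a secreted binding protein for insulin-like growth factors that insulin represses, read 9.75 and 9.81 on the lean and 8.74 and 8.44 on the obese arrays. The difference was -1.19. G6pc1, which encodes the glucose-6-phosphatase that releases glucose from liver, read 11.13 and 11.12 against 10.07 and 9.95, a difference of -1.12. Trib1, a pseudokinase, was 1.53-fold lower (1.5 to 1.57), a call lost with an offset of 16 added to the linear values. The other measured genes were Pck1, the gluconeogenic carboxykinase, and Trib3, another pseudokinase, with differences of -0.26 and 0.00.

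**Figure D3:**
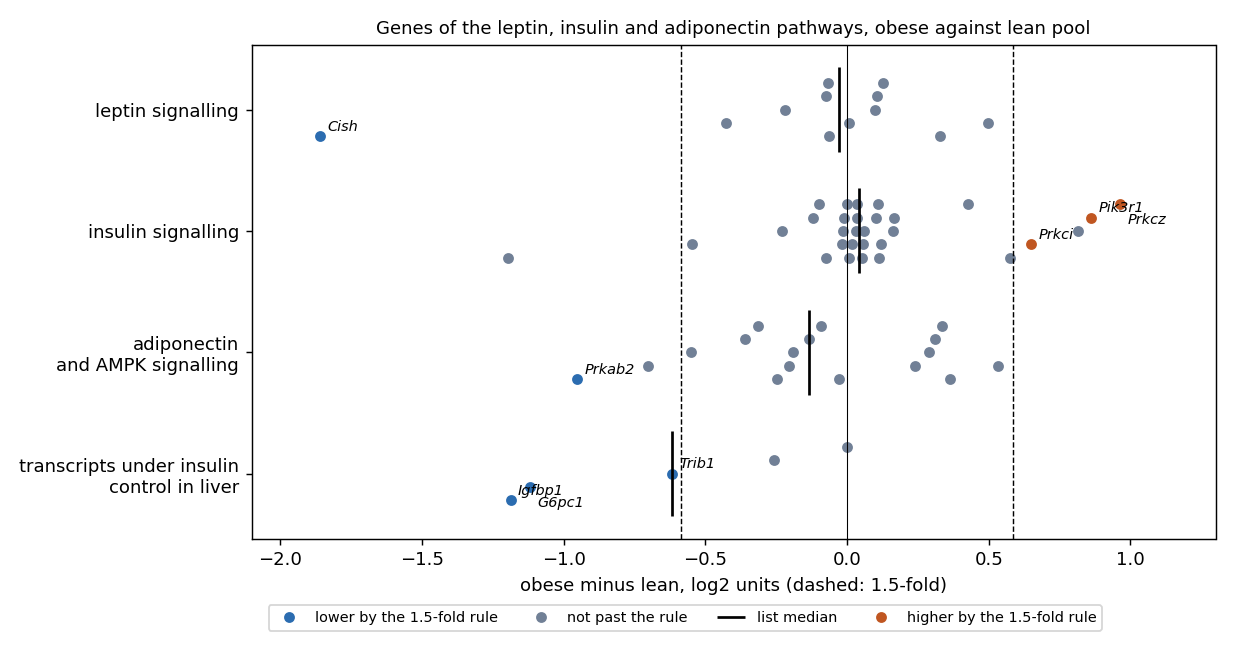
Difference between the pools (obese minus lean, log2 units, horizontal axis) for each measured gene of the 4 lists (rows); genes past the 1.5-fold rule are coloured and named, vertical bars are list medians and dashed lines mark 1.5-fold. Most genes of insulin signalling lie near 0, with Pik3r1, Prkcz and Prkci to the right. Among those not past the rule, Pik3r3 (0.81) and Irs3 (0.57) also lie to the right, and Grb10 (-1.20) and Inppl1 (-0.55) to the left. Of the transcripts under insulin control, Igfbp1, G6pc1 and Trib1 lie to the left.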

How the data were processed

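The authors deposited linear-scale intensities for 29214 probe sets on 4 arrays. Per the submitters' processing notes they were made with RMA, which corrects background, normalises arrays to each other and summarises probes, and which compresses differences of dim and very bright probe sets. Its version, the build and how the values were returned to a linear scale were not given in the sources used here. Values were converted to log2 without further normalisation. Symbols came from the platform annotation: 15310 probe sets had 1 symbol, 323 several and 13581 none listed. Of the former, 15279 were found in the GRCr8 gene table by gene identifier and 0 changed name. Lists use the brightest probe set of a gene. Members, lists and rules were chosen with earlier results of these data known. Every probe set of a member was named, besides up to 4 genes of each list past the 1.5-fold rule, Lep, Adipoq, the 3 most similar probe sets, Acta1, Ckm and Alb. Further genes were named with their values known. These were the stellate cell markers, Cidec, Pck1, Trib3, Socs3, Grb10, Inppl1, Pik3r3, Irs3 and Prkaa1. No p-values were computed. Alternatives were array-median centring, cyclic loess and quantile normalisation (limma 3.58.1), an offset of 16, other filters and folds, and fewer arrays.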

Additional observations from a re-analysis of the deposited data

How the results depend on the processing

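No paired analysis was possible because each phenotype is 1 pool and its arrays are technical replicates with no test. The count of member probe sets past the rule was 0 in each direction under every alternative run. The difference of the Lepr and Leprot probe set stayed below 0 over its 10 alternatives, from -0.44 to -0.20, as did those of Adipor1 (-0.34 to -0.18) and Irs1 (-0.28 to -0.03), and Adipor2 stayed above 0 (0.13 to 0.36). The signs for Leprotl1 and both Insr probe sets changed in 3 or 4 of 10. Without 1 array the leptin median ran from -0.033 to 0.021, the insulin median from -0.011 to 0.12, lower insulin genes from 0 to 1, and AMPK genes from 0 to 1 in either direction. With cyclic loess the medians were -0.10 for leptin and -0.70 for insulin-controlled genes, and 2 insulin genes were lower; with quantile normalisation the medians were -0.070 and -0.67, and with the offset of 16 the latter was -0.57. On the original arrays alone the medians were 0.022 for leptin and 0.12 for insulin, with 1 AMPK gene higher and 0 lower; on the technical replicates alone the insulin median was -0.051 with 1 gene lower. Over the genes past the level filter, a setting added after seeing the data, the median was 0.24 for AMPK genes, opposite in sign, and -0.87 for insulin-controlled genes. Without a level filter 4 insulin genes were higher and 1 lower, and 0 AMPK genes were higher and 2 lower. Over all named probe sets, a 2-fold rule with a gap of 0.5 counted 86 higher and 217 lower, and 583 were higher without the obese technical replicate, against 330. The causes were not tested. Signal over background limits dim genes, since no detection calls were used.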

Other observations

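Set against each other on the same array, the adiponectin receptor probe sets gave a contrast that does not depend on scaling between arrays by a constant. The log2 value of Adipor2 minus that of Adipor1 was 0.80 and 0.58 on the lean arrays and 1.31 and 1.07 on the obese arrays, a shift of 0.50 between pools (0.27 to 0.73 over the pairs). The contrast was chosen after the values were seen, it shows unequal change of the probe sets and not their relative abundance, and it rests on 1 pool of each phenotype.

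On the obese arrays 6 of the 7 probe sets were brighter on the original than on the technical replicate, as were 55.9% of all named probe sets; their upper quartile was 7.28 there, against 7.12 to 7.17 for the remaining arrays. On the lean arrays 5 of the 7 were brighter on the original, as were 49.1% of all named probe sets.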
